A study of Mus musculus with 20 samples.

Results

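Trunk-like structures are aggregates of mouse embryonic stem cells that elongate in Matrigel, an extract rich in laminin and collagen IV, and the series' title names their somites and neural tube. The comparison described here sets structures grown in Matrigel with CHIR99021 and LDN (TLSMGCL) against structures grown in Matrigel only (TLSMG), all collected at 120 h. The members are the 6 bulk RNA libraries that the labels place in these groups, 3 in each, of 15 bulk libraries and 20 samples in the series. The 3 libraries with Matrigel and CHIR99021 but no LDN (TLSMGC) serve as a reference, since they share the gel and CHIR99021 with TLSMGCL. The question is which genes differ when WNT signalling is raised and BMP signalling is blocked together.

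All groups came from the embryonic stem cell line F1G4 with the genotype T::H2B-mCherry/Sox2::H2B-Venus, which reports the transcription factors Brachyury (the product of T) and Sox2 by fluorescent histones. All of them, the Matrigel-only control included, had also received a pulse of 3 µM CHIR99021 at 48 h, per the labels' protocols, so the comparison concerns an additional exposure. The doses and times of that additional CHIR99021 and of LDN are not given in the sources used here. Each TLSMG, TLSMGC and TLSMGCL library pooled 6 structures that had been picked for an asymmetric pole, and the labels state 3 biological replicates. The values therefore describe picked structures of a single cell line, averaged over 6 structures, rather than unselected cultures.

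CHIR99021 inhibits the kinase GSK3, which normally marks β-catenin for destruction, so that β-catenin accumulates and, with factors of the TCF/LEF family, activates WNT target genes. LDN compounds inhibit the type I receptors of bone morphogenetic proteins (BMPs), which otherwise phosphorylate SMAD proteins and turn on targets such as the Id genes. In the embryonic trunk, WNT signals maintain the tailbud and the presomitic mesoderm from which somites are cut off, while BMP signals from the flank favour lateral plate, intermediate mesoderm and blood vessel fates over paraxial mesoderm.

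Abundances are given in TPM, a share of all transcripts in a library scaled to a sum of 1000000, in the order of replicates 1, 2 and 3. Differences are TLSMGCL minus TLSMG on the log2(TPM + 1) scale unless another pair of groups is named, with the standard error (SE) and the adjusted p of limma, and "higher", "lower", "rose" or "fell" without a value means an adjusted p under 0.05. The scale understates the change of genes with low TPM. From 14437 to 14494 genes reached 1 TPM in the TLSMG libraries and from 13688 to 13910 in the TLSMGCL libraries. Relative depth (coverage per unit of FPKM, proportional to aligned bases) was 3.78 to 6.84 in TLSMG and 3.18 to 4.68 in TLSMGCL. The somite factors Meox1 and Tcf15 were abundant in both groups, at 524 to 572 and 127 to 201 TPM in TLSMG and at 249.8 to 296 and 332 to 386 TPM in TLSMGCL. Of the neural tube genes, Pax6 stayed between 0.126 and 0.446 TPM in TLSMGCL.

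Of 14290 tested genes, 6416 (44.9%) differed between TLSMGCL and TLSMG, with 1330 (9.31%) higher and 5086 (35.6%) lower. The median difference of all tested genes was -0.184, and TPM, as shares of a total, hold no absolute amount. When the libraries were rescaled so that the median gene kept its level (median-of-ratios scaling), 2734 genes (19.1%) were higher and 2865 (20%) lower. The direction of small differences therefore depends on the scale, and is given below with the scaling where it flips. With a difference of at least 1 in size, 188 genes (1.32%) were higher and 785 (5.49%) lower. Of these, 187 and 771 were called in the same direction under median-of-ratios scaling, on FPKM and after a correction for GC content and length. Groups did not overlap in 7823 genes (54.7%). Among 303 tested genes from 30 lists of signalling, cell type and process genes, 56 were higher and 162 lower.

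**Figure D1:**
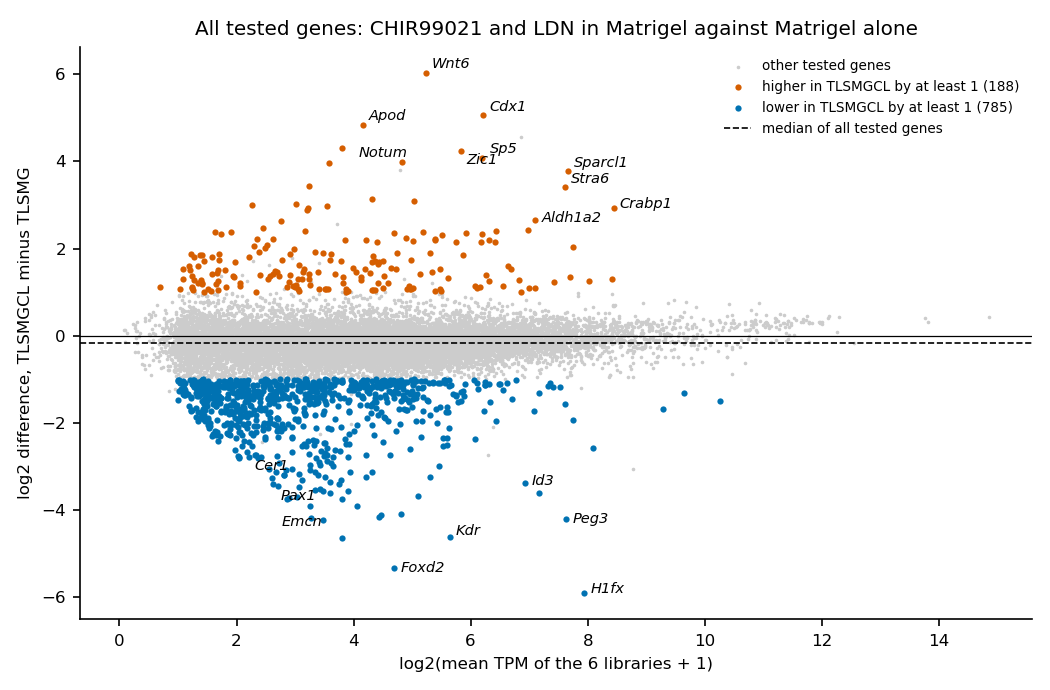
All 14290 tested genes, with the log2 of the mean TPM + 1 of the 6 libraries on the x axis and the log2 difference, TLSMGCL minus TLSMG, on the y axis. Orange points are the 188 genes higher by at least 1 and blue points the 785 lower by at least 1 at an adjusted p under 0.05. The dashed line is the median of all tested genes, -0.184, and named genes such as Wnt6, Cdx1 and Sp5 lie far above it and Foxd2, Kdr and Peg3 far below.

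The 12 largest rises were led by the WNT ligand Wnt6. Its TPM were 0.139, 0.0417 and 0.232 in TLSMG and 75.3, 73.9 and 71.1 in TLSMGCL, a difference of 6.03 (SE 0.21, adjusted p = 3.97e-10). The 2 groups lay far apart with no overlap, from traces to a solidly expressed gene. The caudal homeobox gene Cdx1, a direct WNT target in the tailbud, stood at 2.77, 3.32 and 3.88 TPM in TLSMG and at 145, 148 and 136 TPM in TLSMGCL, a ratio of means of 42.9. Next came the lipocalin Apod (4.84), the mitochondrial carrier gene Slc25a48 (4.30), the zinc finger gene Zic1 (4.23), Sp5 (4.09), Notum (3.99), Wnt11 (3.96), the matrix glycoprotein gene Sparcl1 (3.78), Nfam1 (3.43), the retinol transporter gene Stra6 (3.41) and the formin gene Daam2 (3.13). Separation of the 6 libraries was a condition for naming these 12 genes and the falls that follow.

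Among the largest falls, the forkhead gene Foxd2 went from 51.2, 43.8 and 52.2 TPM in TLSMG to 0.153, 0.53 and 0.0739 TPM in TLSMGCL, a difference of -5.33 (SE 0.19, adjusted p = 3.97e-10). Its head-to-head neighbour Foxd2os, on the opposite strand, differed by -4.64. Genes of blood vessels followed, with the VEGF receptor gene Kdr at -4.62, the sialomucin gene Emcn at -4.23, the fenestral diaphragm gene Plvap at -4.11 and the VEGF and semaphorin co-receptor gene Nrp1 at -4.09. Also among them were the imprinted gene Peg3 (-4.21), the fatty acid transporter gene Cd36 (-4.16), the sclerotome gene Pax1 (-3.92) and the neural progenitor gene Hes3 (-3.92). The linker histone gene H1fx headed the falls by the rule (-5.91, SE 1.49, adjusted p = 0.00568), but it was listed at 0, 284 and 0 TPM in TLSMGCL and at 388, 394 and 403 TPM in TLSMG. An overlapping gene on its strand, Gm47286, had mean TPM of 0.479 in TLSMG and 3.84 in TLSMGCL, and 0 may be a failed estimate, so the H1fx value is uncertain.

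Feedback genes and targets of WNT signalling were higher in TLSMGCL. Of 15 tested members of that list, 9 rose and 1 fell, against 9.31% and 35.6% of all tested genes, and the list's median difference was 1.14 against -0.184. Sp5, a transcription factor gene that β-catenin activates directly, was at 7.54, 6.24 and 7.84 TPM in TLSMG and at 141, 136 and 137 TPM in TLSMGCL. The groups did not overlap, and the ratio of means was 19.2 (difference 4.09, SE 0.17, adjusted p = 1.69e-09). Axin2, the scaffold that limits β-catenin and a standard readout of the pathway, was at 18.3, 31.0 and 23.3 TPM in TLSMG and at 114, 73.6 and 82.8 TPM in TLSMGCL (1.86, SE 0.17, adjusted p = 1.46e-06). Every TLSMGCL library exceeded every TLSMG library.

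Notum, which encodes a secreted enzyme that inactivates WNT ligands, rose from 2.61, 1.79 and 2.76 TPM to 57.1, 57.5 and 43.4 TPM. Nkd1 (2.41) and Nkd2 (1.70), inhibitors that act on Dishevelled, the membrane antagonist gene Apcdd1 (1.46) and the nuclear partners of β-catenin Tcf7 (1.14) and Lef1 (0.61) rose as well. Rnf43 (0.20), the secreted antagonist gene Dkk1 (0.41), the R-spondin receptor gene Lgr5 (-0.18) and Bambi (-0.01) did not pass the test, and nor did the receptor ligase gene Znrf3 (0.35, adjusted p = 0.05), which passed under 8 of the alternatives. The cyclin gene Ccnd1 fell, from 207, 229 and 221 TPM to 97.9, 100.4 and 96.5 TPM (-1.15, SE 0.07, adjusted p = 3.17e-08). The promoter of Sp5 is shown because it is among the few of this list that hold a TCF/LEF motif close to the start:

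Sp5 promoter: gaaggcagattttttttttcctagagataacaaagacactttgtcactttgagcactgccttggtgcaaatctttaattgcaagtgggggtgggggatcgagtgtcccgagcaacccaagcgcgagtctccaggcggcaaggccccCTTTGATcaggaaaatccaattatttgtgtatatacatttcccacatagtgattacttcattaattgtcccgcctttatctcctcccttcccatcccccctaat

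These are the 250 bases before a RefSeq transcription start, chr2:70474673-70474922 on the plus strand (GRCm38.p6), and the capitals mark the letters CTTTGAT, which begin 104 bases before the start. The letters CTTTGAA and CTTTGAT, searched on both strands, stood in 2 of 14 starts of 9 matched genes of the list (Sp5 and Dkk1), against 7.48% of 32851 starts. A match is a description of the letters and not a mapped binding site.

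WNT ligands and receptors did not move as a block. Of 20 tested members, 5 rose and 11 fell, against 9.31% and 35.6% of all genes. Their median difference was -0.51, and under median-of-ratios scaling 6 were higher and 9 lower. The ligand gene Wnt11 rose from 0.104, 0.456 and 0.856 TPM to 21, 21.3 and 21.7 TPM (3.96, SE 0.19, adjusted p = 4.49e-09). By contrast Wnt5a, a ligand of the noncanonical branch that drives axis elongation, fell from 48.7, 45.9 and 38 TPM to 10.9, 10.3 and 18.6 TPM (-1.70, SE 0.22, adjusted p = 3.89e-05). Groups were separate for both genes. Wnt4 fell by 1.70 on the log2 scale, from 1.94 to 4.00 TPM in TLSMG to 0.0492 to 0.115 TPM in TLSMGCL. The tailbud ligand gene Wnt3a did not pass the test (0.27, adjusted p = 0.183). Among the receptors Fzd8 fell most (-2.48, from 22.7 to 26.5 TPM to 3.18 to 3.79 TPM), while Fzd7 rose slightly (0.33). The secreted frizzled-related genes Sfrp1 (-1.0), Sfrp2 (-0.87) and Sfrp5 (-1.35, not called with a pseudocount of 5), which sequester WNT ligands, were lower. The R-spondin genes went different ways. Rspo1 (0.72) was higher, and the more abundant Rspo3 was lower on TPM (-0.54, adjusted p = 0.0384). The Rspo3 call was lost under median-of-ratios scaling (-0.35, adjusted p = 0.189).

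The response genes of BMP signalling were lower in TLSMGCL. Of 10 tested members 7 fell and none rose, with a median of -0.90, against 35.6% lower and a median of -0.184 in all genes. The 3 Id genes, inhibitors of bHLH factors and direct SMAD targets, fell furthest together with the haematopoietic factor gene Gata2. Id1 was at 84.5, 76.7 and 66.1 TPM in TLSMG and at 14.5, 14.7 and 12.8 TPM in TLSMGCL (-2.35, SE 0.13, adjusted p = 1.62e-08). Id2 was at 186, 113 and 110.2 TPM in TLSMG and at 31.4, 35.3 and 32.4 TPM in TLSMGCL (-1.97, SE 0.25, adjusted p = 2.73e-05). Id3 was at 191, 256 and 214 TPM in TLSMG and at 17.9, 23.0 and 19.4 TPM in TLSMGCL, 11 times lower by ratio of means (-3.39, SE 0.14, adjusted p = 9.03e-10). All 3 genes separated the groups without overlap. Between TLSMGC and TLSMG, 7 of the 10 list members were lower and 2 higher, with a median of -0.67. Of all genes 30.5% were lower and 10.4% higher there.

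For the Id genes TLSMGC, the group with CHIR99021 alone, stood between the 2 others. Id1 was at 29.9, 33.2 and 33.8 TPM in TLSMGC, and TLSMGCL lay below it by 1.15 on the log2 scale (adjusted p = 0.000509). Id3 was at 63.3, 70.1 and 73.2 TPM in TLSMGC, and TLSMGCL differed from it by -1.73 (adjusted p = 4.73e-05). For Id2 the difference between TLSMGCL and TLSMGC, -0.75, did not pass (adjusted p = 0.187). Its libraries did not overlap, as in 15.8% of all tested genes in that comparison. The muscle segment homeobox gene Msx1, another BMP target, was at 11.9, 26.3 and 18.2 TPM in TLSMG, at 35.5, 44.3 and 42.3 TPM in TLSMGC and at 17.6, 19.9 and 15.5 TPM in TLSMGCL. TLSMGCL overlapped TLSMG (-0.03, adjusted p = 0.921) but lay below every TLSMGC library (-1.16, adjusted p = 0.0125). That call was lost without TLSMGC replicate 2, TLSMGCL replicate 1 or TLSMGCL replicate 3, with an adjusted p of at most 0.0604. The inhibitory SMAD genes Smad6 (-0.62) and Smad7 (-0.92), which BMP signalling induces as brakes, and Hey1 (-0.89) were below TLSMG, and Msx2 (0.21) did not pass. Against TLSMGC, Smad6 (-0.27, adjusted p = 0.208) and Hey1 (-0.25, adjusted p = 0.581) did not pass.

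The promoter of Id2 is shown as that of a BMP response gene that fell and holds a SMAD motif in the window:

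Id2 promoter: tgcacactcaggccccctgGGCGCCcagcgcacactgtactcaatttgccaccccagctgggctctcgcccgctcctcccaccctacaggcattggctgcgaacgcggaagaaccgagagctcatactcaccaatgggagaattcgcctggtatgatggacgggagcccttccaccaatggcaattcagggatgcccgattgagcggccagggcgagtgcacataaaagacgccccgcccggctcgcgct

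This is chr12:25096093-25096342 on the minus strand (GRCm38.p6, RefSeq start), and the capitals mark GGCGCC, which begins 231 bases before the start. GGCGCC, which reads the same on both strands, stood in 4 of 9 starts of 8 matched genes of the list (Gata2, Id2, Id4 and Smad9), against 9.59% of all starts. The letters CAGACA, searched on both strands, stood in 0 of the 9 starts, against 17.1% of all starts.

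BMP ligands, receptors and antagonists were mixed, with 4 of 13 tested members higher and 7 lower, against 9.31% and 35.6% of all genes. The ligand gene Bmp7 rose from 8.58, 10.1 and 9.80 TPM to 36.8, 28.0 and 36.5 TPM (1.72, SE 0.12, adjusted p = 1.63e-07), and Bmp5 rose by less (0.82). Bmp2 fell (-0.78) and Bmp4 did not pass (0.13). The receptor genes Bmpr1a (-0.61), Acvr1 (-0.52) and Bmpr2 (-0.81) were lower, and Bmpr1b (-0.05) did not pass. The secreted antagonists went different ways. Grem1 was at 4.65, 4.63 and 2.98 TPM in TLSMG, at 2.12, 2.59 and 2.07 TPM in TLSMGC and at 0.0795, 0.0829 and 0.162 TPM in TLSMGCL (-2.18, SE 0.14, adjusted p = 5.99e-08). Noggin (Nog) was at 3.51, 3.19 and 3.29 TPM in TLSMG, rose to 7.51, 8.15 and 6.57 TPM in TLSMGC and stood at 1.64, 1.67 and 2.21 TPM in TLSMGCL, lower than in both other groups (-0.61 and -1.57). Follistatin (Fst, 1.32) and chordin (Chrd, 0.65) were higher than in TLSMG, and Bmper (-1.24) was lower.

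**Figure D2:**
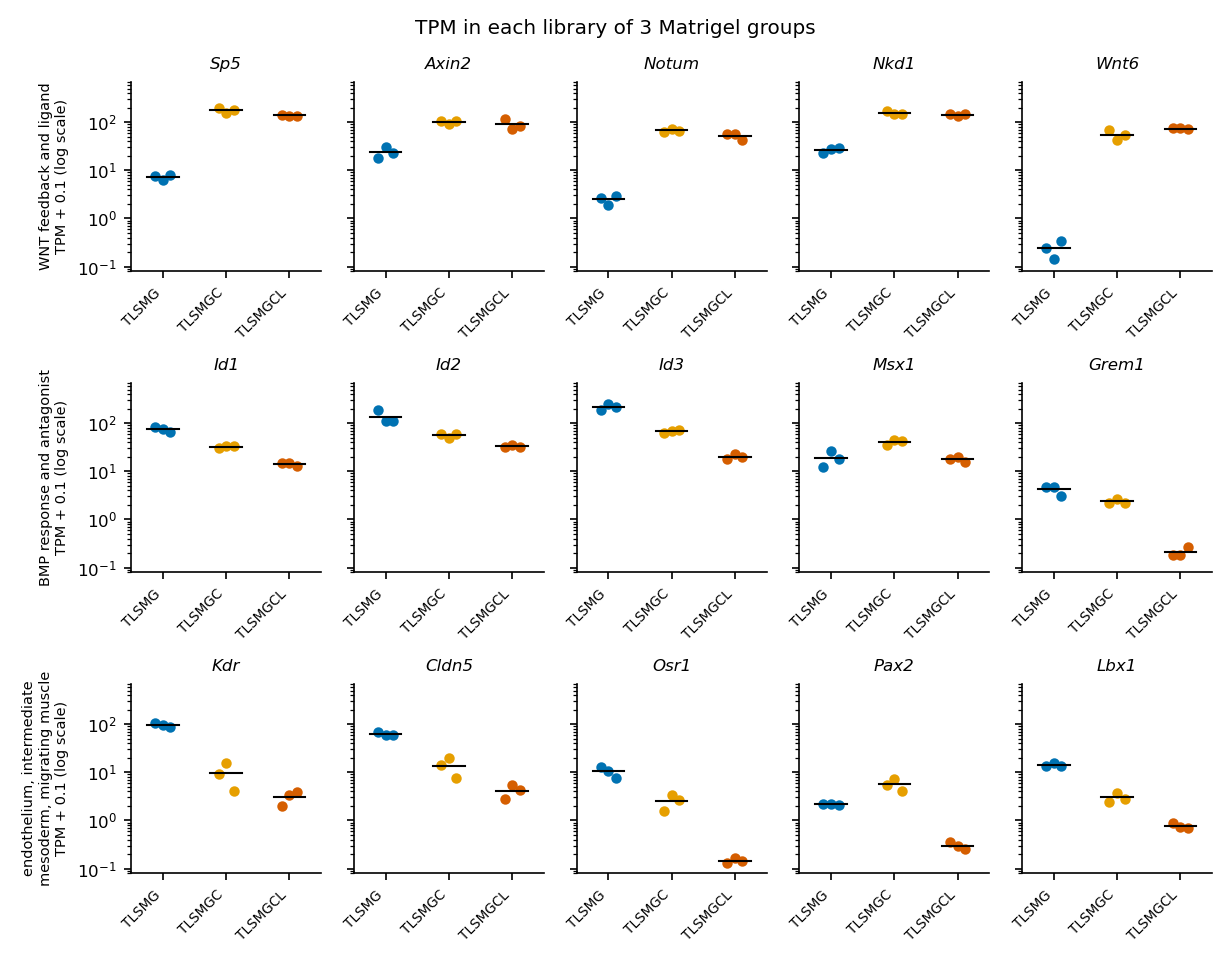
TPM + 0.1 on a log axis for 15 genes in the 3 libraries of TLSMG, TLSMGC and TLSMGCL. Points are libraries and bars are group means. In the top row TLSMGC and TLSMGCL lie near each other and above TLSMG, whereas Id1, Id3, Grem1, Osr1, Pax2 and Lbx1 are lower in TLSMGCL than in both other groups.

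Genes of the presomitic mesoderm and tailbud were higher on balance: 8 of 15 tested members rose, 2 fell, and the median was 0.43. Of all tested genes 9.31% rose and 35.6% fell. Cdx1 was counted here and in the WNT feedback list. Tbx6, the T-box factor that commits progenitors to paraxial mesoderm, was at 6.16, 3.95 and 7.94 TPM in TLSMG and at 55.2, 61.9 and 54.2 TPM in TLSMGCL (3.09, SE 0.26, adjusted p = 8.38e-07). Msgn1, a bHLH factor of the presomitic mesoderm, went from 0.892, 0.823 and 1.85 TPM to 15.0, 17 and 14.2 TPM (2.93, SE 0.22, adjusted p = 2.94e-07). Both genes separated the groups by a wide gap. For Msgn1, TLSMGC was higher still, at 35.9, 28.8 and 45 TPM, and TLSMGCL lay below it (-1.18, adjusted p = 0.0194), a call lost without TLSMGC replicate 1 or 3 or TLSMGCL replicate 1 or 3 (adjusted p up to 0.215 over the alternatives). Brachyury (T) rose moderately (0.81), as did the tailbud genes Evx1 (1.02) and Fgf17 (1.22). Cdx2 (0.33) and Nkx1-2 (0.43), markers of axial progenitors, did not pass. With only the 2 groups fitted they did (adjusted p = 0.0492 and 0.0243). In both every TLSMGCL library exceeded every TLSMG library, but groups did not overlap in 54.7% of all tested genes. Fgf8 (0.16), Cdx4 (-0.39) and Wnt3a also missed the threshold. Cyp26a1, which degrades retinoic acid in the tailbud, fell from 6.21, 3.48 and 5.61 TPM to 1.51, 1.78 and 1.90 TPM (-1.13, SE 0.21, adjusted p = 0.000712), and Sp8 was lower (-0.55, and -0.26 and not called after the GC and length correction).

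In the segmentation clock and boundary list 6 of 15 members rose and 1 fell, against 9.31% and 35.6% of all genes. The list's median was 0.24, and Hes7 was counted in the presomitic list as well. The oscillating repressor gene Hes7 rose from 12.5, 9.48 and 13.2 TPM to 35.2, 40.0 and 33.4 TPM (1.56, SE 0.25, adjusted p = 0.000218). The Notch ligand genes Dll1 (1.12) and Dll3 (1.54), the receptor gene Notch1 (1.10), the feedback gene Nrarp (0.53) and Mesp1 (2.01) rose too, while the Notch effector genes Hes1 (-0.18), Hes5 (-0.21) and Heyl (0.24) did not pass. Lfng, the glycosyltransferase gene that modulates Notch, was level at 27.1, 28.7 and 35.4 TPM in TLSMG and 30.4, 30.6 and 27.5 TPM in TLSMGCL (-0.03, adjusted p = 0.831). Mesp2, which sets the next boundary, was at 7.05, 5.11 and 9.36 TPM in TLSMG and at 11.6, 11.3 and 9.66 TPM in TLSMGCL, above TLSMG in every library but short of the threshold (0.57, adjusted p = 0.09). Such a separation was found in 54.7% of all tested genes. Ripply1 (0.04) and Ripply2 (0.06) overlapped between groups. Cer1, a secreted antagonist of the anterior presomitic mesoderm, fell from 11.5, 8.79 and 14.7 TPM to 0.331, 0.308 and 0.459 TPM (-3.19, SE 0.30, adjusted p = 2.28e-06).

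Somite genes split. Of 12 tested members 2 rose, 5 fell and 5 did not pass, near the 35.6% lower among all genes, and under median-of-ratios scaling 4 were higher and 4 lower. Tcf15, a bHLH factor required for the somite epithelium, rose from 127, 135 and 201 TPM to 386, 332 and 376 TPM (1.26, SE 0.18, adjusted p = 0.000104). Aldh1a2, which makes retinoic acid in somites, rose from 33.0, 40.0 and 36.8 TPM to 239, 222 and 249 TPM (2.66, SE 0.12, adjusted p = 3.23e-09), and TLSMGCL also exceeded the 158, 119 and 128 TPM of TLSMGC (0.82, adjusted p = 0.00556). Meox1 fell to 292, 249.8 and 296 TPM from 533, 524 and 572 TPM (-0.96, SE 0.08, adjusted p = 1.19e-06). In these 3 genes no library of one group reached the other. Meox2 (-2.05), which marks maturing somites, Cdh11 (-1.50) and Tbx18 (-2.80) were lower.

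Tbx18 and Uncx mark opposite compartments of a somite, the anterior and the posterior, and they did not move together. Tbx18 was at 7.25, 7.67 and 9.16 TPM in TLSMG and at 0.393, 0.118 and 0.370 TPM in TLSMGCL. Uncx was at 18.5, 21.2 and 31.2 TPM in TLSMG and at 39.5, 33.6 and 34.5 TPM in TLSMGCL, higher in every library but not past the threshold (0.61, SE 0.26, adjusted p = 0.0706), and past it under median-of-ratios scaling (0.81, adjusted p = 0.0222). Groups did not overlap in 54.7% of all tested genes. The single posterior and anterior marker do not measure compartment sizes. Foxc1 was lower (-0.31) on TPM only, since median-of-ratios scaling gave -0.11 and the GC and length correction 0.03, and the call was lost without TLSMG replicate 3 or TLSMGCL replicate 2. Foxc2 (-0.13) and Pax3 (-0.12) overlapped between groups.

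Derivatives of the somite were mostly lower. In the sclerotome list 6 of 9 tested members fell (5 under median-of-ratios scaling) and 2 rose, with a median of -0.92. Of all genes 35.6% fell (20% under that scaling) and 9.31% rose. Pax1, a paired box factor of the sclerotome, was at 12.6, 18.7 and 19.6 TPM in TLSMG and at 0.261, 0.143 and 0.109 TPM in TLSMGCL, 99.3 times lower by ratio of means. Sox9, the chondrogenic factor gene, fell from 19.6, 19.6 and 15.6 TPM to 3.59, 3.26 and 3.37 TPM (-2.12, SE 0.13, adjusted p = 4.24e-08). Pax9 (-0.92) was lower, while Foxd1 (-0.23) overlapped. The rising members were Twist1 (0.38), whose call was lost when any of the 6 libraries but TLSMGCL replicate 2 was left out, and Zic1, a gene also expressed in the dorsal neural tube, at 2.37, 10.4 and 3.65 TPM in TLSMG and 120, 83.1 and 116 TPM in TLSMGCL.

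In the dermomyotome and myogenic list 1 of 9 tested members rose and 5 fell (4 under median-of-ratios scaling), against 9.31% and 35.6% of all genes. Dmrt2, a somite patterning factor, rose from 22.6, 26.7 and 45.5 TPM to 148, 119.7 and 143 TPM (2.14, SE 0.26, adjusted p = 2.01e-05). Lbx1, a marker of migrating muscle precursors and of dorsal interneurons, stood at 13.1, 15.7 and 13.5 TPM in TLSMG, with TLSMGC lower at 2.35, 3.68 and 2.75 TPM. The TLSMGCL libraries were lowest, at 0.795, 0.636 and 0.580 TPM. Both the whole difference (-3.18, SE 0.15, adjusted p = 3.95e-09) and that between TLSMGCL and TLSMGC (-1.22, adjusted p = 0.00115) passed. Met, the receptor gene that releases such precursors, was lower (-1.75), as were Sim1 (-0.88) and, on TPM, Six4 (-0.40, and 0.01 after the GC and length correction). Pax7 (-0.11) and Eya1 (0.03) did not pass. The muscle determination genes Myod1 and Myog were listed at 0 in all libraries of both groups, and Myf5, below the expression filter, was at 0.239 to 0.510 TPM in TLSMG and 1.15 to 1.38 TPM in TLSMGCL. In pooled tissue, fewer cells of a type and less RNA per cell cannot be told apart, here or in the lists that follow.

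**Figure D3:**
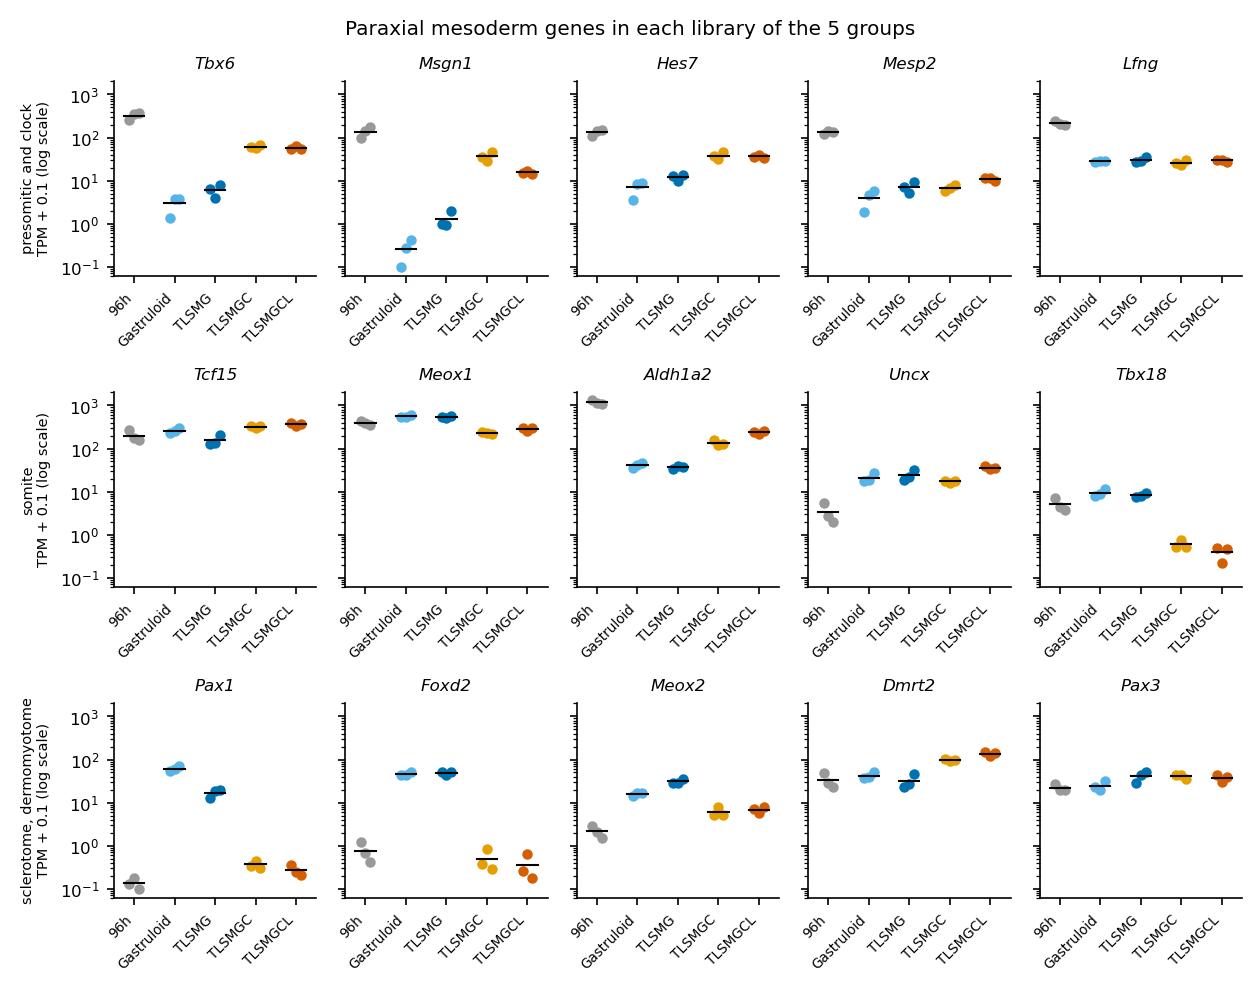
TPM + 0.1 on a log axis for 15 paraxial mesoderm genes in the 3 libraries of each of the 5 groups, with bars at the group means. Tbx6, Msgn1 and Hes7 are higher in TLSMGC and TLSMGCL than in TLSMG, Lfng is level among the 120 h groups, and Tbx18, Pax1 and Foxd2 are near 0 in TLSMGC and TLSMGCL.

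Of 11 tested retinoic acid genes 4 were higher and 6 lower (5 lower under median-of-ratios scaling), against 9.31% and 35.6% of all genes. Next to Aldh1a2, the uptake receptor gene Stra6 rose from 26.3, 32.6 and 40.5 TPM to 379, 330.1 and 361 TPM. Crabp1, which encodes an intracellular carrier of retinoic acid, rose from 68.8, 103 and 69.4 TPM to 554, 683 and 603 TPM (2.94, SE 0.17, adjusted p = 3.56e-08) and stood at 363, 326 and 383 TPM in TLSMGC. Its difference from TLSMGC (0.78, adjusted p = 0.0475) was no longer called when any of those 6 libraries was left out (adjusted p up to 0.169 over the alternatives). The retinol dehydrogenase gene Rdh10 was higher (1.41). The receptor gene Rarb, itself a retinoic acid target, fell from 10.3, 12.9 and 12.4 TPM to 1.53, 1.53 and 1.49 TPM (-2.35, SE 0.21, adjusted p = 1.23e-06), and the carrier gene Crabp2 (-0.95) and the receptor gene Rara (-0.60) were lower.

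Genes of neural tube progenitors were lower, 8 of 11 tested and none higher, with a median of -1.30. Under median-of-ratios scaling 7 were lower and 1 higher. The shares of all genes were 35.6% lower and 9.31% higher, or 20% and 19.1% under that scaling. Sox1, an early neural plate factor, fell from 13.6, 21.5 and 18.4 TPM to 2.19, 1.91 and 1.85 TPM (-2.64, SE 0.22, adjusted p = 6.64e-07). Sox2, a neural and axial progenitor factor and one of the reported genes, fell from 67.4, 90.3 and 84.1 TPM to 33.4, 33.2 and 29.2 TPM (-1.30, SE 0.17, adjusted p = 3.76e-05). Pax6, of the intermediate neural tube, fell from 5.31, 15.0 and 11.3 TPM to below 0.5 TPM, and Irx3 (-2.32), Sox3 (-1.75), Olig2 (-1.72) and Nkx6-1 (-0.80) followed. Groups were separate for each of these genes. Sox2 and Sox3 kept more of their level than Sox1 and Pax6, at 0.396 and 0.287 of the TLSMG mean against 0.111 and 0.0230. Of 7 tested neurogenesis genes 1 was higher and 3 lower on TPM, but 3 were higher and 1 lower under median-of-ratios scaling. Isl1 fell (-1.40) and Stmn2 (-0.57) and Elavl4 (-0.39) were lower on TPM, whereas Tubb3 (0.36), Pou4f1 (0.34) and Lhx1 (-0.29) did not pass. Median-of-ratios scaling called Tubb3 (0.55, adjusted p = 0.0261) and Pou4f1 (0.47, adjusted p = 0.0292) higher and neither Stmn2 nor Elavl4 lower. Of 5 tested neural crest genes 2 were higher and 2 lower, on TPM and under median-of-ratios scaling. Zic1, counted in the sclerotome list too, was among the higher ones. The defining neural crest genes Sox10, Foxd3 and Tfap2a were below the expression filter. They were at or below 0.059 TPM in all TLSMGCL libraries and at 0.055 to 1.20 TPM in TLSMG.

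Of 7 tested hedgehog and notochord genes 4 were lower (3 under median-of-ratios scaling) and 1 was higher. Of all genes 35.6% were lower (20% under that scaling). The higher member was chordin (Chrd), counted also among the BMP antagonists. The signal transducer gene Smo (-0.18), at the median of all genes, changed sign under median-of-ratios scaling (0.02) and after the GC and length correction (0.07), and lost its call without TLSMG replicate 2 or 3 or TLSMGCL replicate 2. Gli1, the most direct readout of the pathway, fell from 7.65, 6.5 and 8.49 TPM to 1.84, 1.62 and 1.55 TPM (-1.67, SE 0.14, adjusted p = 7.22e-07). TLSMGC lay between, at 3.47, 2.80 and 2.62 TPM, with a difference from TLSMGCL of -0.57 (adjusted p = 0.0744). The receptor gene Ptch1, another target, was lower (-0.58, and -0.14 and not called after the GC and length correction), as was Gli3 (-0.69), and Foxa2 (-0.49) overlapped. The ligand gene Shh was below the filter, at 0.883 to 1.80 TPM in TLSMG and 0.185 to 0.385 TPM in TLSMGCL.

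Endothelial genes showed the largest fall of any list. All 14 tested members were lower, with a median of -3.28 against -0.184 in all genes, and 13 of them fell by at least 1. Of all tested genes 35.6% were lower, and 5.49% by at least 1. Kdr went from 106, 94.8 and 85.2 TPM in TLSMG to 1.94, 3.31 and 3.73 TPM in TLSMGCL (-4.62, SE 0.36, adjusted p = 4.01e-07). Etv2, the factor that specifies blood vessel progenitors, went from 22.3, 18.9 and 21.5 TPM to 0.724, 1.05 and 1.69 TPM (-3.37, SE 0.21, adjusted p = 5.63e-08). Cldn5, a tight junction gene of endothelium, went from 69, 59.8 and 58.3 TPM to 2.75, 5.24 and 4.17 TPM (-3.68, SE 0.25, adjusted p = 1.43e-07). In each of them the highest TLSMGCL library lay far below the lowest TLSMG library. The cadherin gene Cdh5 (-3.12), the angiopoietin receptor gene Tek (-3.57), its relative Tie1 (-3.24), Sox18 (-3.56) and Erg (-3.32) fell by similar amounts, and Pecam1 (-0.87) and Egfl7 (-1.05) by the least.

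The endothelial list summed to 359.6 to 444 TPM in TLSMG. The sum was 53 to 136 TPM in TLSMGC, and 33.1 to 54.0 TPM with LDN added. The TLSMGC libraries spread widely, with Kdr at 9.05, 15.3 and 4.01 TPM, and lay much nearer to TLSMGCL than to TLSMG. Between TLSMGCL and TLSMGC, Cldn5 (-1.47, adjusted p = 0.0116), Etv2 (-0.98, adjusted p = 0.0391) and Tek (-1.34, adjusted p = 0.0393) passed, and Kdr (-1.26, adjusted p = 0.122) did not. All 3 of those calls were lost without TLSMGC replicate 2 and without TLSMGCL replicate 1, with adjusted p up to 0.204, 0.233 and 0.291 over the alternatives. The blood factor gene Tal1 was lower than in TLSMG (-2.02). The globin genes Hbb-y, Hba-x and Hbb-bh1, the erythroid gene Gata1 and the leukocyte gene Ptprc were listed at 0 in all libraries of the 3 groups.

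Intermediate mesoderm, the source of the kidney, showed falls in most of its genes: 6 of 7 tested members fell and none rose. Of all genes 35.6% fell and 9.31% rose, and the list's median was -1.36. Osr1, an early gene of intermediate and lateral mesoderm, was at 13, 10.6 and 7.37 TPM in TLSMG, at 1.5, 3.35 and 2.59 TPM in TLSMGC and at 0.0328, 0.0617 and 0.0459 TPM in TLSMGCL (-3.40, SE 0.23, adjusted p = 1.39e-07). The 3 groups formed 3 separate steps. Pax2, a kidney lineage factor, was higher in TLSMGC (5.38, 7.16 and 4.06 TPM) than in TLSMG (2.07, 2.11 and 2.04 TPM) and lowest in TLSMGCL (0.257, 0.191 and 0.152 TPM). Its difference between TLSMGCL and TLSMGC, -2.42 (adjusted p = 6.43e-06), was the largest of that comparison under the naming rule. Pax8, below the filter, was listed at 0 in all TLSMGCL libraries and at 1.57 to 4.12 TPM in TLSMG. Wt1 (-2.79) and Gata3 (-2.04) were lower. Lhx1 did not differ from TLSMG past the threshold (-0.29, adjusted p = 0.0786) but was below TLSMGC (-1.06, adjusted p = 0.00101, or 0.0691 with only those 2 groups fitted).

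Of the 8 tested lateral plate and cardiac genes 4 fell and 1 rose, against 35.6% and 9.31% of all genes. Foxf1, a BMP-responsive factor of the splanchnic lateral plate, stood at 7.44, 4.68 and 6.29 TPM in TLSMG and at 3.48, 3.13 and 3.12 TPM with CHIR99021 alone. With LDN it was at 0.626, 0.683 and 0.793 TPM (-2.05, SE 0.19, adjusted p = 2.04e-06, and -1.32 against TLSMGC, adjusted p = 0.00461, or 0.0714 with a pseudocount of 5). Hand1 was listed at 0 in all TLSMGCL libraries and at 0.309 to 0.794 TPM in TLSMG, too low for a call (adjusted p = 0.311). The homeobox gene Prrx2 (-2.38) and Gata6 (-1.75) were lower. The riser was the troponin gene Tnnt2, at 0.564, 1.75 and 1.41 TPM in TLSMG and 16.6, 12.6 and 16.2 TPM in TLSMGCL (2.88, SE 0.26, adjusted p = 1.76e-06), while the heart genes Nkx2-5 and Tbx5 stayed below 0.3 TPM in both and the atrial gene Myl7 was listed at 0.

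Gut endoderm genes were lower in 9 of 13 members, with a median of -0.92, under TPM, and in 7 under median-of-ratios scaling. The shares of all genes that were lower were 35.6% and 20%. Hhex, shared with endothelium, fell most (-2.87), followed by the simple epithelium keratin genes Krt19 (-1.68), Krt8 (-1.16) and Krt18 (-0.98) and by the pioneer factor gene Foxa1 (-1.67). Sox17 varied within groups, at 8.11, 3.88 and 3.94 TPM in TLSMG and 1.51, 8.55 and 4.73 TPM in TLSMGCL (-0.23, adjusted p = 0.733). TLSMGCL replicate 2 held the highest Sox17 of its group and also the lowest mitochondrial share (0.37% of TPM, against 1.14% and 0.783%), whose part in the result was not tested.

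Pluripotency and germ cell genes were lower in 8 of 14 members (5 under median-of-ratios scaling) and higher in none, against 35.6% and 20% lower among all genes. Pou5f1 fell from 28.2, 23.3 and 27.9 TPM to 15.0, 14.3 and 12.5 TPM (-0.88, SE 0.25, adjusted p = 0.011), and Prdm1 (-2.45), Utf1 (-1.35) and Tfap2c (-1.12) were lower. Nanog (-0.55, adjusted p = 0.0743), Klf4 (0.06) and Esrrb (-0.08) did not pass. Of the extraembryonic endoderm genes, Afp was listed at 0 in both groups and Dab2 fell (-2.48). The summed TPM of 10 fibroblast genes, which would mark residual feeder cells, was 35.0 to 38 in TLSMG and 24.6 to 26.4 in TLSMGCL. S100a4 was listed at 0 in both groups and Lum in TLSMGCL. Of 6 tested fibroblast genes 3 were lower and none higher on TPM, and 3 were lower and 2 higher under median-of-ratios scaling. Of all genes 35.6% were lower and 9.31% higher, or 20% and 19.1% under that scaling.

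**Figure D4:**
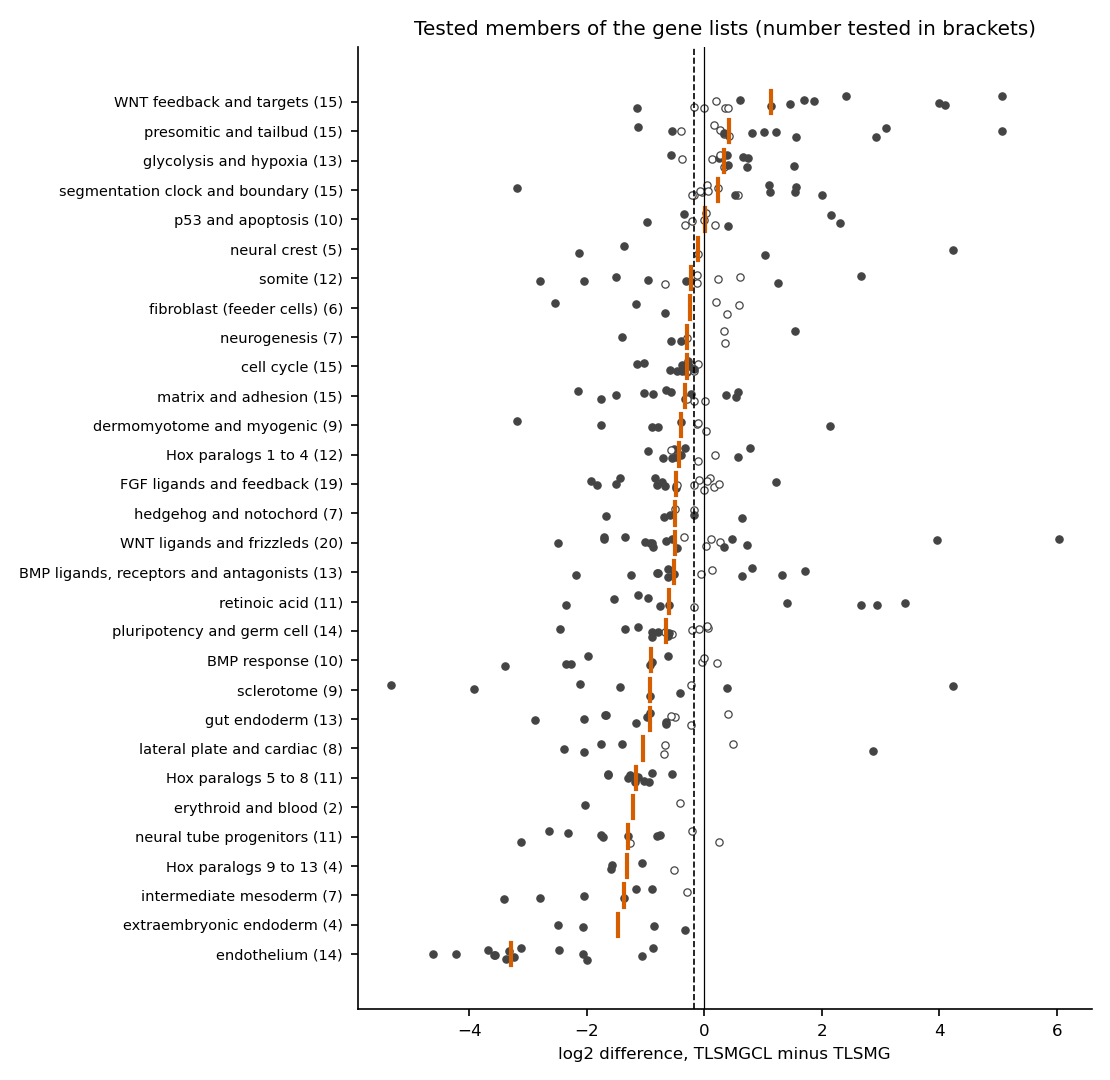
Log2 differences, TLSMGCL minus TLSMG, of the tested members of 30 gene lists, ordered by their median (orange bar). Filled circles passed an adjusted p of 0.05, open circles did not, and the dashed line is the median of all tested genes, -0.184. The endothelial list lies lowest, at -3.28, and the WNT feedback list highest, at 1.14.

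The Hox genes differed along their clusters. Hox genes are arranged so that low paralog numbers act anterior and early and high numbers posterior and late. Of 12 tested genes of paralogs 1 to 4, 2 rose and 7 fell, with a median of -0.43 (3 higher and 5 lower under median-of-ratios scaling). Of 11 genes of paralogs 5 to 8 all fell, with a median of -1.16, and 10 did so under median-of-ratios scaling. In the list of paralogs 9 to 13 only the 4 genes of paralog 9 were tested, and 3 of them fell, with a median of -1.32. The listed genes of paralogs 10 to 13 were below the expression filter. Of all genes 9.31% rose and 35.6% fell (19.1% and 20% under median-of-ratios scaling). Hoxb1, the most 3' gene of its cluster, rose from 34.7, 36.9 and 41.8 TPM to 71.3, 62.4 and 63.5 TPM (0.78, SE 0.11, adjusted p = 0.000107), and Hoxd1 (0.58) rose as well. Hoxb9, at the other end of the trunk code, fell from 248, 341 and 286 TPM to 98.8, 104 and 87.1 TPM (-1.57, SE 0.19, adjusted p = 2.17e-05). Hoxc6 and Hoxc8 (both -1.64) and Hoxc9 (-1.59) fell by the largest amounts. The groups did not overlap in any of these genes.

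Within paralogs 2 to 4 the falls were smaller, between -0.32 (Hoxb4) and -0.95 (Hoxa2), and those of Hoxb2 and Hoxb4 did not pass under median-of-ratios scaling. Hoxb4 also lost its call without TLSMG replicate 2 or 3 or TLSMGCL replicate 2 or 3. Hoxd9 was at 10.1, 8.23 and 7.80 TPM in TLSMG, at 17, 16.9 and 21.5 TPM in TLSMGC and at 6.79, 6.45 and 4.31 TPM in TLSMGCL. It missed the threshold against TLSMG (-0.51, adjusted p = 0.0902) but was well below TLSMGC (-1.52, adjusted p = 0.00706). Hoxd8 was below both groups, by -1.17 against TLSMG and by -0.67 against TLSMGC (adjusted p = 0.0153), the latter lost without TLSMGC replicate 2, TLSMGCL replicate 1 or TLSMGCL replicate 3 (adjusted p up to 0.124 over the alternatives). Several neighbouring Hox genes share exons in the annotation (Hoxd3 with Hoxd4, Hoxc5 with Hoxc10), so reads between them may have been split.

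**Figure D5:**
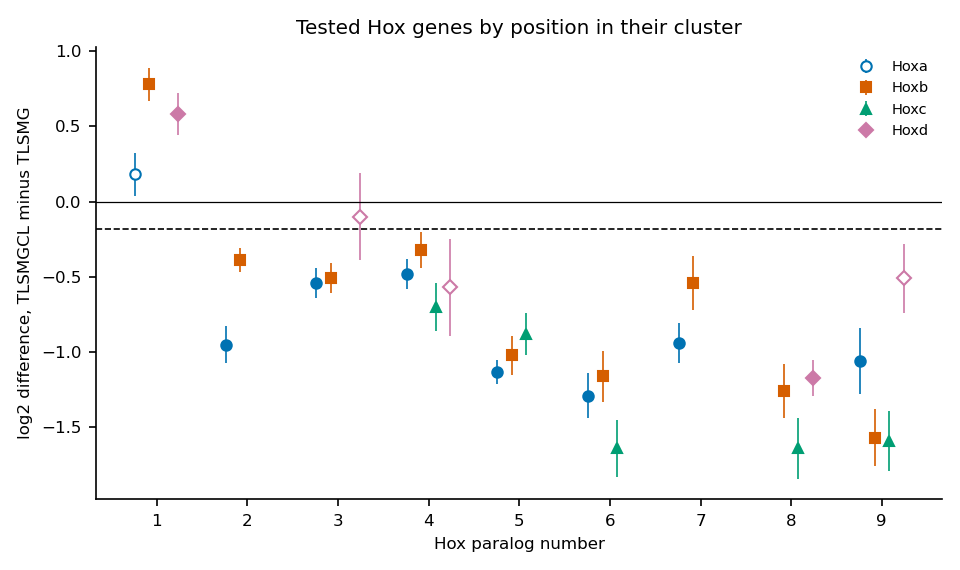
Log2 difference, TLSMGCL minus TLSMG, of each tested Hox gene against its paralog number, with bars for ± 1 SE. Filled symbols passed an adjusted p of 0.05, and the dashed line is the median of all tested genes. Paralog 1 genes lie above 0, at 0.78 for Hoxb1, and genes of paralogs 5 to 9 lie below it.

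FGF signalling genes, which hold the tailbud undifferentiated, were lower in 9 of 19 tested members and higher in 1, on TPM and under median-of-ratios scaling, where 35.6% and 20% of all genes were lower. The ligand gene Fgf18 fell from 20.9, 14.6 and 22.5 TPM to 4.48, 3.38 and 5.19 TPM (-1.92, SE 0.16, adjusted p = 8.47e-07), and the receptor genes Fgfr2 (-1.83) and Fgfr3 (-1.50) and the feedback gene Spry1 (-1.43) fell too. Among the other feedback and readout genes of the pathway, Dusp4 (-0.84), Spred1 (-0.71), Etv5 (-0.66) and Spry2 (-0.48) were lower without overlap, while Dusp6 (-0.08), Spry4 (-0.18) and Etv4 (0.05) overlapped between the groups. Among matrix and adhesion genes 3 of 15 rose and 9 fell, against 9.31% and 35.6% of all genes, and under median-of-ratios scaling 4 were higher and 6 lower. Nid1, which links laminin to collagen IV, fell from 20.6, 18.3 and 17.8 TPM to 3.34, 3.03 and 4.11 TPM (-2.15, SE 0.20, adjusted p = 2.07e-06), and the integrin genes Itga3 (-1.76) and Itga5 (-0.87) and the perlecan gene Hspg2 (-1.02) were lower. Fibronectin (Fn1, -0.18) and N-cadherin (Cdh2, 0.02) overlapped, although Cdh2 was called higher under median-of-ratios scaling (0.22, adjusted p = 0.0459), and the laminin genes Lama1 (-0.33) and Lamc1 (-0.23) were lower on TPM but changed sign after the GC and length correction (0.08 and 0.15), and Lamc1 lost its call without TLSMG replicate 2 or 3 or TLSMGCL replicate 2.

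The p53 target Cdkn1a, a cell cycle inhibitor gene, rose from 11.6, 12.5 and 14.9 TPM to 33.6, 92.7 and 101 TPM (2.31, SE 0.30, adjusted p = 4.12e-05). Its level in TLSMGCL replicate 1 was well under that of the other 2 libraries, yet above every TLSMG library. Phlda3, another p53 target, rose from 17.2, 17.8 and 20.7 TPM to 83.9, 93.8 and 81.4 TPM (2.16, SE 0.14, adjusted p = 1.12e-07). The classical targets Mdm2 (-0.20) and Bax (-0.01) did not pass, and Trp53inp1 (-0.97) was lower. In this list 3 of 10 genes were higher and 2 lower (4 and 1 under median-of-ratios scaling). Of all genes 9.31% were higher and 35.6% lower (19.1% and 20% under that scaling). Proliferation genes were lower in 11 of 15 cases on TPM but in 4 under median-of-ratios scaling, against 35.6% and 20% of all genes. The Ki-67 gene Mki67 was at 122, 161 and 151 TPM in TLSMG and 86.9, 47.9 and 83.5 TPM in TLSMGCL (-1.02, SE 0.20, adjusted p = 0.000999), while most of the others differed by less than 0.5, and Birc5 (-0.17) changed sign under median-of-ratios scaling (0.03) and lost its call without TLSMG replicate 3. Glycolysis and hypoxia genes were higher in 8 of 13 cases and lower in 1 (median 0.34), against 9.31% and 35.6% of all genes. Bnip3 (1.52), Eno1 (0.74), Aldoa (0.72) and Pgk1 (0.66) were in front, and Ldha (0.34), Slc2a1 (0.14) and Slc2a3 (-0.37) fell short of the threshold.

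By their labels TLSMGCL and TLSMGC differ in LDN, with no doses given to compare, and far fewer genes passed between them: 169 of 14290 (1.18%), with 58 (0.406%) higher and 111 (0.777%) lower. Scaled by median of ratios, 103 were higher (0.721%) and 99 lower (0.693%), and 15.8% of genes did not overlap. TLSMGC against TLSMG, labelled as differing in the additional CHIR99021, gave 5842 genes (40.9%), 10.4% higher and 30.5% lower (18.3% and 18.8% under median-of-ratios scaling), and 52.4% did not overlap. These comparisons share libraries with each other and with that of TLSMGCL and TLSMG, so their values are given side by side and not correlated. BMP response, endothelium and intermediate mesoderm each had 3 members lower in TLSMGCL than in TLSMGC and none higher, of 10, 14 and 7 tested. The largest differences under the naming rule were those of Pax2, Id3, Phlda2 (-1.70), Nepn (-1.61, adjusted p = 0.0488) and Nog (-1.57). Nepn lost its call without TLSMGC replicate 1 or 2 or any TLSMGCL library, with adjusted p up to 0.325 over the alternatives. Of the named, listed and imprinted genes, some of them not reported here, 32 passed in this comparison. Under every alternative that tested them, leaving aside the minimum difference of 1, 9 did so: Pax2, Id1, Id3, Grem1, Nog, Phlda2, Lbx1, Hoxd9 and Aldh1a2. Pax2, Grem1, Nog and Lbx1 entered 14 of these alternatives and the others 15. Aldh1a2 (0.82) does not reach the minimum difference. Phlda2, an imprinted gene, was at 5.03, 4.26 and 4.11 TPM in TLSMG, at 14.5, 16.7 and 20.4 TPM in TLSMGC and at 3.92, 6.53 and 3.59 TPM in TLSMGCL. As with Msx1, TLSMG and TLSMGCL overlapped while TLSMGC stood above both. The 12 largest rises against TLSMG held no gene that differed between TLSMGCL and TLSMGC, and Sp5 (-0.35, adjusted p = 0.426), Notum (-0.35, adjusted p = 0.453) and Wnt6 (0.45, adjusted p = 0.384) did not pass there. The count of 169 depended on single libraries: it was 56 without TLSMGC replicate 2, 70 without TLSMGCL replicate 1, 78 without TLSMGCL replicate 3 and 42 when only those 2 groups entered the fit.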

How the data were processed

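Bulk RNA was measured in 15 libraries, 3 in each of 5 groups, taken from the labels. The labels' protocols describe polyadenylated RNA, a stranded kit and paired-end reads of 75 bases. The submitters' processing notes name cutadapt 2.4, STAR 2.7.3a, StringTie 2.0 and the build mm10, and their settings, including the use of strand, are not given in the sources used here. For genes whose exons overlap another on the opposite strand, reads of both may therefore not have been told apart. Among those named these include Axin2, Notum, Wnt11, Zic1, Pax1, Irx3, Hes7, Evx1, Notch1, Mest and Cdkn1c, and the enumeration is not complete. Per the file headers, the deposited TPM, FPKM and coverage values stand side by side in a StringTie gene table for each library, with replicates kept apart. TPM summed to 1000000 in each library, and FPKM, also deposited by the authors, was used as an alternative. The deposited coverage served only as a measure of depth. Lines of a gene ID (7 to 13 repeated per table) were summed, giving 54446 gene IDs, of which 53499 had the same position in GENCODE M21 (GRCm38). The files hold no counts, so no confidence intervals or detection limits were computed, and a listed 0 may be a failed estimate.

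For testing, log2(TPM + 1) values (pseudocount 1) of the 14290 genes whose TPM averaged 1 or more across the 15 libraries were fitted with limma 3.58.1 (R 4.3.3). All 5 groups entered the fit, with a mean for each group, empirical Bayes with a mean trend, and two-sided p-values adjusted by the Benjamini-Hochberg method over all tested genes of a comparison, with a threshold of 0.05. The fit was tested on simulated data. Alternatives were pseudocounts of 0.1 and 5, no filter and a minimum mean of 5 TPM, median-of-ratios scaling, FPKM, a GC and length correction (splines with 4 degrees of freedom), only the 2 compared groups, a minimum difference of 1, a replicate block, and leaving out each library.

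Genes named by rule were the 12 largest rises and falls past the threshold that averaged 5 TPM or more where higher, with no overlap and a symbol that is no clone name, the first 3 genes and the 5 largest differences of each of 30 lists (387 symbols, 303 tested), and the 5 largest differences between TLSMGCL and TLSMGC. Other list members are named to complete a list. Some genes that the rule names or the lists count are not reported here. The comparison, the members and the lists were chosen with earlier results of these data known. Promoter sequences came from RefSeq (GRCm38.p6) and were matched by symbol. Python 3.11.15, numpy 2.4.6, pandas 2.3.3 and matplotlib 3.10.9 were used for tables and figures. The 5 single-cell samples were not analysed here.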

Additional observations from a re-analysis of the deposited data

How the results depend on the processing

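Of the named, listed and imprinted genes, some of them not reported here, 251 passed the threshold in TLSMGCL against TLSMG. Of these, 205 passed under every alternative that tested them, leaving aside the minimum difference of 1. For TLSMGCL against TLSMGC this held for 9 of 32. The count of 6416 genes was 5080 (without TLSMGCL replicate 2) to 6243 when a library was left out, with 1058 to 1273 higher and 3952 to 5006 lower. The split depended on scaling: 2734 were higher and 2865 lower under median-of-ratios scaling, 2154 were higher on FPKM, and 3125 were higher and 2449 lower after the GC and length correction. A minimum difference of 1 left 973 (188 higher, 785 lower), and 825 (252 higher, 573 lower) with median-of-ratios scaling, a combination chosen after seeing the data. For TLSMGCL against TLSMGC the 169 calls became 279 after the GC and length correction, 42 with only those 2 groups fitted, 46 with a minimum difference of 1 and 56 to 198 when a library was left out. For TLSMGC against TLSMG the 5842 calls became 880 with a minimum difference of 1 and 4703 to 5392 when a library was left out. The cause of these shifts was not tested. The direction changed after the GC and length correction for Lama1 (0.08), Bambi (0.36), Foxc1 (0.03), Six4 (0.01), Smo (0.07), Lamc1 (0.15) and Birc5 (0.05), and under median-of-ratios scaling for Smo (0.02) and Birc5 (0.03). Differences correlated with gene length across 14283 genes (r = -0.21) and with GC content (r = 0.09), and genes are not independent replicates.

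With the replicate block, 6187, 122 and 5599 genes were called in the 3 comparisons. Deviations of same-numbered libraries of TLSMGCL and TLSMG from their group means correlated at -0.08, -0.05 and -0.06. For TLSMGCL and TLSMGC the correlations were 0.10, -0.14 and -0.18. No shared effect of the replicate number was visible, but such values cannot show whether same-numbered libraries were prepared together. Without counts, the precision of low values is unknown, and 3 libraries per group limit what small differences can show.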

Other observations

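Imprinted genes, expressed from a single parental allele and many of them regulators of fetal growth, were lower in TLSMGCL. This list of 27 genes was drawn up after Peg3 had been seen among the largest falls, so its counts are a description. Of 25 tested members 20 were lower, 10 of them by at least 1, and none was higher. Of all tested genes 35.6% were lower, 5.49% by at least 1, and 9.31% were higher. The list's median was -0.62 against -0.184 in all tested genes. Under median-of-ratios scaling 17 were lower and none higher, against 20% and 19.1% of all genes. The lower calls of Sgce, Ndn, Igf2r, Zrsr1 and Nnat were lost after the GC and length correction. Peg3, a zinc finger gene expressed from the paternal allele, was at 387, 393 and 347 TPM in TLSMG, at 28.0, 41.5 and 25.4 TPM in TLSMGC and at 21, 16.4 and 20.8 TPM in TLSMGCL. Its neighbour Usp29 differed by -2.58. Peg10, a retrotransposon-derived gene, went from 275, 299 and 222 TPM in TLSMG to 20.8, 17 and 25.1 TPM in TLSMGCL (-3.61, SE 0.22, adjusted p = 5.8e-08). The Notch-related ligand gene Dlk1 went from 64.7, 87.8 and 59.6 TPM to 5.43, 8.38 and 5.89 TPM (-3.24, SE 0.28, adjusted p = 1.08e-06). For each of these genes the 2 groups were far apart.

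Both paternally and maternally expressed genes were among the lower ones. At the locus of Dlk1 the maternally expressed noncoding genes Meg3 (-1.33), Rian (-1.17) and Mirg (-1.20) were lower too. The cell cycle inhibitor gene Cdkn1c, maternally expressed, went from 367, 359 and 289 TPM to 92.0, 89.8 and 80.7 TPM (-1.93), the zinc finger gene Plagl1 differed by -2.45, and Mest went from 1825, 1869 and 1739 TPM to 691, 564 and 672 TPM (-1.50). Igf2 varied within groups, at 277, 612 and 622 TPM in TLSMG and 383, 193 and 844 TPM in TLSMGCL (adjusted p = 0.761), and Gnas (0.03), Slc38a4 (-0.36), Magel2 (-0.32) and Phlda2 (0.02) did not pass the threshold. In TLSMGC against TLSMG the differences of Peg3, Peg10, Dlk1, Cdkn1c, Plagl1 and Mest were -3.56, -2.89, -2.71, -1.98, -2.19 and -1.46.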
